A study of Mus musculus with 10 samples.

Results

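The genes described are 8 of the 10767 genes with a normalized RNA-seq value in splenic CD8+ cDC1, namely Hmgcs1, Insig1, Sqle, Idi1, Fdps, Fdft1, Cyp51 and Srebf2. They were chosen by gene symbol, as genes of cholesterol synthesis and of its control, and all 8 were found in the table. None of the 8 encodes an uptake receptor, so that cholesterol uptake is described through other genes of the pathway. The conventional type 1 dendritic cells (cDC1) were sorted by FACS as live MHCII+CD11c+CD11b-CD8+ cells from the spleens of untreated adult Ppef2+/+ and Ppef2-/- mice, matched for sex and age. The Ppef2-/- mice carry a knockout-first gene trap with a lacZ reporter in the Ppef2 gene in every cell, and were derived from JM8A3.N1 embryonic stem cells by crossing chimeras to C57BL/6 mice. The cells came from 5 independent sorts, with the spleens of 3 mice pooled for each library. Both libraries of the same replicate number, 1 per genotype, are taken as 1 sort. In all, 10 libraries were compared, and the spread between single mice cannot be seen.

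Cholesterol is made from acetyl-CoA through mevalonate, isoprenoid diphosphates, squalene and lanosterol. The transcription factor SREBP2, the product of Srebf2, is held in the endoplasmic reticulum by SCAP and INSIG proteins when sterols are plentiful. When sterols are low it is cleaved in the Golgi and switches on genes of synthesis and uptake, and also Insig1 and its own gene. The messenger RNAs of the pathway are therefore widely used as a readout of the sterol status of a cell.

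The promoters of the regulators Insig1 and Srebf2, of the first enzyme of the set (Hmgcs1) and of the sterol demethylase Cyp51 are shown because Insig1 and Cyp51 differed between the sorts, whereas the test for Hmgcs1 was not passed and Srebf2 could not be tested. RefSeq promoters (GRCm38.p6) matched 5 of the 8 genes. The sequences run 5′ to 3′ on the strand of the gene and stop before the first annotated transcript start. Capitals mark TCACNCCA, the core of a classical sterol regulatory element, the CCAAT box bound by NF-Y, and the E-box CACGTG, each read on both strands.
Insig1 (chr5:28071162-28071362, plus strand): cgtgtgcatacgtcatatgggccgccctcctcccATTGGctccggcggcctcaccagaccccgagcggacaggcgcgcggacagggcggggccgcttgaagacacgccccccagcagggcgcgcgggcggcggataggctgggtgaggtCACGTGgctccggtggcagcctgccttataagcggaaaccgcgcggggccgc
Srebf2 (chr15:82147019-82147180, plus strand): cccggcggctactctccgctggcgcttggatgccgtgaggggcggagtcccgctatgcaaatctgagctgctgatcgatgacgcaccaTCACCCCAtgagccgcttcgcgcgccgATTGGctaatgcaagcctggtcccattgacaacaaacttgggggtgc
Hmgcs1 (chr13:119690101-119690350, plus strand): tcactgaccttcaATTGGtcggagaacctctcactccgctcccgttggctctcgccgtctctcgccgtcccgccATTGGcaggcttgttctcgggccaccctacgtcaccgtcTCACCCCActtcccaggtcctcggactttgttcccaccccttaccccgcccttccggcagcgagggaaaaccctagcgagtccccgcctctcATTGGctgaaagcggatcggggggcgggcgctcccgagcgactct
Cyp51 (chr5:4104747-4104947, minus strand): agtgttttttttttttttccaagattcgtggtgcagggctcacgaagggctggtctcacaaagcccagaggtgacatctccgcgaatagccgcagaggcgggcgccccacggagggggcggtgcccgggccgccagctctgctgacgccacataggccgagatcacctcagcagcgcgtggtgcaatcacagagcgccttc
In the 250 bases before the RefSeq start, TCACNCCA was found once each for Srebf2 and Hmgcs1, and not for Insig1, Cyp51 or Idi1. It was present in 3.67% of 32851 promoters of the same length. CCAAT was found at 3 places for Hmgcs1, at 2 for Idi1, and at 1 each for Insig1, Srebf2 and Cyp51, with that of Cyp51 and both of Idi1 lying beyond the transcript start in GENCODE M21. At least 1 CCAAT was present in 33.8% of all promoters and 3 or more in 2.79%. CACGTG was found only for Insig1 among the 5 promoters, and in 6.02% of all. None of these motifs overlapped another in the 4 promoters shown. The motifs were chosen after the sequences had been seen, and a match describes letters and not a bound site.

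All 8 genes were expressed in both genotypes. Compared per kilobase of exon (union of the exons in GENCODE M21), the order of the levels in Ppef2+/+ cells was Srebf2, Insig1, Hmgcs1, Cyp51, Fdps, Idi1, Sqle and Fdft1. Srebf2 stood at 289 normalized reads per kb and Fdft1, the lowest, at 27.2. The order was the same in the Ppef2-/- cells. Over the 10373 genes with a length, Srebf2 ranked 778 and Fdft1 ranked 6145. Between neighbours in this order, the libraries of Srebf2 (270.4 to 296 normalized reads per kb, from deposited values without differences between sorts) did not overlap those of Insig1 (85.4 to 207, with these differences put back as described below), and, on the latter scale, those of Idi1 (52.9 to 81.7) did not overlap those of Sqle (24.3 to 37.0). All other neighbours overlapped.

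The deposited values hide a part of the variation. For 10721 genes, all those with no value set to the floor of 1, the sum of both libraries of a sort was the same in every sort, so that differences between sorts had been removed before deposit while the differences within a sort had been kept. Whole reads could be calculated back for 9637 genes, including 7 of the 8, and multiplied by the value of 1 read they give the level with the sort means put back. The levels below are on this scale unless they are named as deposited. The 9637 genes had 1408837 to 4442965 reads per library, and the ratio of the reads of Ppef2-/- to those of Ppef2+/+ ran from 2.92 in sort 1 to 0.73 in sort 5. Ppef2, the targeted gene, had 290.2, 198, 143, 126 and 227 normalized reads in Ppef2+/+ cells (sorts 1 to 5 in order, here and throughout) and 3.25, 4.73, 0.937, 0 and 2.74 in Ppef2-/- cells, without overlap. All 10 cDC1 markers examined were in the table, among them Xcr1, Clec9a and Cd8a, and the sum of their deposited values was 70412 to 73268 in Ppef2+/+ and 69722 to 72579 in Ppef2-/- libraries. The T cell markers Cd3e, Cd3d, Cd3g, Trac and Lck and the B cell markers Cd79a and Pax5 were not in the table. With sort means put back, the sum of 5 of 5 markers of pDC was 1016 to 1341 in Ppef2+/+ and 938 to 1069.5 in Ppef2-/- libraries and lower in the Ppef2-/- library in all 5 sorts, and Tcf4 was lower in Ppef2-/- without the sort in the model (log2 fold change -0.31 ± 0.047 SE, limma adjusted p = 0.018) but not with it (adjusted p = 0.71). On the same scale the sums in Ppef2+/+ and Ppef2-/- libraries were 563 to 759 and 485 to 905 for cDC2 (5 of 5 markers), 153 to 198 and 170.1 to 185 for B cells (2 of 5), and 1262 to 1525 and 1250.3 to 1502 for macrophages and monocytes (6 of 7). For erythroid cells (3 of 4 markers) the sums were 73.7 to 182 and 119 to 152, and higher in the Ppef2-/- library in 4 of 5 sorts. The part of these markers in the results was not tested.

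The first question was whether cDC1 without Ppef2 express these genes at another level. No member passed the test in either direction. By limma on log2(deposited value + 1), with Benjamini-Hochberg adjustment over all genes, 0 of the 8 genes were called, compared to 103 genes or 0.957% of the table, and for 1 of the 8 the p before adjustment was under 0.05, compared to 17.5% of the table. In the fit with the sort as a block, 0 of the 8 were called against 0.00929% of the table, and for 0 of the 8 was the p before adjustment under 0.05, compared to 4.29% of the table. The median log2 fold change of the 8 genes was -0.02, and that of all genes was 0.00. Because the spread between sorts had been taken out of the deposited values, p-values without the block are too small, and the 95% intervals below come from the blocked fit. The log2 fold changes and intervals below are of deposited values unless named otherwise, also where the levels beside them have the sort means put back.

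Among the regulators, Srebf2 (chromosome 15, 82147181 to 82205379, plus strand) could not be solved for reads and is given as deposited. Its values were 2079, 2103, 1969.6, 2126 and 2089 in Ppef2+/+ and 1990.1, 1966, 2099, 1943 and 1980.3 in Ppef2-/- libraries. It was lower in the Ppef2-/- library in 4 of 5 sorts and higher in sort 3, and the genotypes overlapped. The means were 2073 ± 60.6 and 1996 ± 60.6 (SD, n = 5), with a log2 fold change of -0.05 (95% interval -0.16 to 0.05, limma adjusted p = 0.36 without and 0.995 with the block).

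Insig1 (chromosome 5, 28071363 to 28078662, plus strand) encodes the sterol-regulated protein that retains SCAP and SREBP in the endoplasmic reticulum. It had 264, 299, 549, 534 and 352 normalized reads in Ppef2+/+ and 289, 306, 533, 641 and 315 in Ppef2-/- libraries. Sorts 3 and 4 were high and sorts 1 and 2 low in both genotypes. The genotype means were 399 ± 133 and 417 ± 160.4 (SD, n = 5), and the log2 fold change was 0.06 (95% interval -0.10 to 0.22, limma adjusted p = 0.61 without and 0.995 with the block).

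Of the enzymes of the mevalonate and isoprenoid steps, Hmgcs1 (chromosome 13, 119690379 to 119708260, plus strand) makes HMG-CoA. It had 448, 364, 439, 396 and 389 normalized reads in Ppef2+/+ and 375, 375, 355, 521 and 352 in Ppef2-/- libraries. The Ppef2-/- library of sort 4 was the highest of all, and the Ppef2-/- libraries of the other sorts lay below or among those of Ppef2+/+. The log2 fold change was -0.04 (95% interval -0.23 to 0.15, limma adjusted p = 0.84 without and 0.997 with the block).

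Idi1 (chromosome 13, 8885501 to 8892451, plus strand) interconverts the isoprenoid units IPP and DMAPP. It had 271, 232, 234, 197 and 238 normalized reads in Ppef2+/+ and 234, 186, 215, 286 and 203 in Ppef2-/- libraries. It was lower in the Ppef2-/- library in 4 sorts and higher in sort 4 only, where the Ppef2+/+ library was the lowest of its genotype and the Ppef2-/- library the highest of all. The log2 fold change was -0.06 (95% interval -0.29 to 0.17, limma adjusted p = 0.80 without and 0.995 with the block). Without both libraries of sort 4, an alternative chosen after seeing the data, it was -0.22, and the adjusted p was 0.052 without and 0.92 with the block. How reads shared with the paralog Idi2, which is not in the table, were counted is not given in the sources used here.

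Fdps (chromosome 3, 89093588 to 89101959, minus strand), which makes farnesyl diphosphate, had 344, 274, 317, 348 and 308 normalized reads in Ppef2+/+ and 317, 297, 321, 369.9 and 266 in Ppef2-/- libraries. Its genotypes overlapped, and it was higher in the Ppef2-/- library in 3 of 5 sorts. The log2 fold change was -0.02 (95% interval -0.18 to 0.14, limma adjusted p = 0.87 without and 0.997 with the block).

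Of the enzymes of squalene and sterol synthesis, Fdft1 (chromosome 14, 63145150 to 63179578, minus strand), the squalene synthase, had 111, 105, 109.7, 118 and 131 normalized reads in Ppef2+/+ and 113, 95.1, 134, 128 and 98.6 in Ppef2-/- libraries. The range in Ppef2-/- enclosed that in Ppef2+/+. The log2 fold change was -0.02 (95% interval -0.27 to 0.24, limma adjusted p = 0.94 without and 0.999 with the block).

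Sqle (chromosome 15, 59315077 to 59331192, plus strand), the squalene epoxidase and a rate-limiting enzyme of the sterol part of the pathway, was the member with a p of 0.011 before adjustment. It had 201, 135, 167, 189 and 148 normalized reads in Ppef2+/+ and 190.4, 162, 205, 198 and 199 in Ppef2-/- libraries. The Ppef2-/- library was the higher of the sort in 4 of 5 sorts and lower in sort 1, and the genotypes overlapped. The means were 168 ± 27.4 and 191 ± 16.9 (SD, n = 5). The log2 fold change was 0.18 (95% interval -0.02 to 0.39), with a limma adjusted p of 0.15 without and 0.995 with the block. An exact test that exchanges genotypes within sorts gave p = 0.188 (two-sided; 0.0625 is the smallest that 5 sorts allow).

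Cyp51 (chromosome 5, 4081145 to 4104746, minus strand), the lanosterol demethylase, had 316, 320.4, 388, 377 and 331 normalized reads in Ppef2+/+ and 315, 289, 388, 491 and 264 in Ppef2-/- libraries. Both the highest and the lowest library were Ppef2-/-, in sorts 4 and 5. The log2 fold change was 0.01 (95% interval -0.17 to 0.20, limma adjusted p = 0.95 without and 0.999 with the block). With the sort means put back and the block it was -0.02 (95% interval -0.20 to 0.16), so that its sign depended on the scale.

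**Figure D1:**
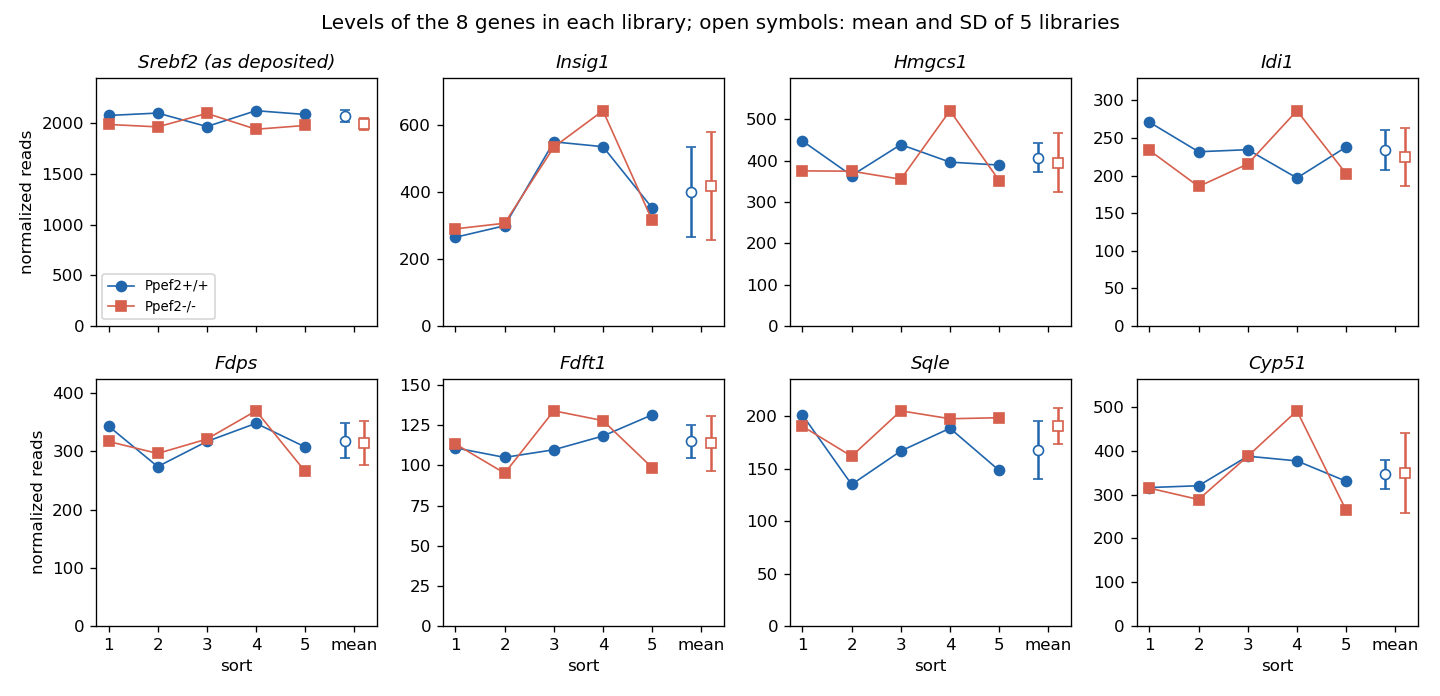
Normalized reads of the 8 genes (y axis, from 0) in the Ppef2+/+ (blue circles) and Ppef2-/- (red squares) library of each of 5 sorts (x axis), with sort means put back except for Srebf2, which is shown as deposited. Open symbols with bars are the mean and SD of 5 libraries; the genotypes overlap for each gene, and Insig1 is high in sorts 3 and 4 in both.

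The rest of the pathway was followed in 7 lists of 72 genes, of which 65 were in the table. By limma without a block, 0 of the 65 genes rose and 1 fell, and with the sort as a block 0 rose and 0 fell. Before adjustment, p was under 0.05 for 9 of the 65 genes without and for 2 with the block, compared to 17.5% and 4.29% of the table. The gene that fell was Hsd17b7, which encodes a 3-ketosteroid reductase of sterol synthesis. It had 54.8, 34.1, 66.1, 69.3 and 53.8 normalized reads in Ppef2+/+ and 41.3, 29.0, 45.0, 56.0 and 35.6 in Ppef2-/- libraries. It was lower in the Ppef2-/- library in all 5 sorts, although the genotypes overlapped. Its log2 fold change was -0.42 ± 0.084 (SE) with a limma adjusted p of 0.042, but 0.995 with the block (95% interval -0.77 to -0.06), and the exact test within sorts gave p = 0.0625, the smallest possible. The other gene with p under 0.05 before adjustment in the blocked fit was Scd1, a fatty acid desaturase named after its values were seen, with a log2 fold change of 0.54 (95% interval 0.17 to 0.91, limma adjusted p = 0.063 without and 0.995 with the block).

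In the mevalonate list, the kinase Pmvk and the decarboxylase Mvd had log2 fold changes of -0.01 and 0.18. Of the 10 sterol enzymes, the most abundant were Lbr and Ebp, both with a log2 fold change of -0.04. The 9 genes of SREBP control, including the ubiquitin ligase Rnf145 and the protease Mbtps1, lay between -0.06 and 0.06. In the list of uptake and transport, 13 of 15 genes were in the table, and Npc2, Lipa and Scarb1 had log2 fold changes of 0.00, 0.00 and -0.04. In the list of LXR and efflux, which holds sterol export and its regulators, 9 of 12 genes were in the table, and Cyp27a1, Abcg1 and Nr1h2 had log2 fold changes of 0.04, 0.12 and 0.07. Among 10 of 11 genes of the isoprenoid branch, those of Coq2, Icmt and Fnta were 0.07, -0.15 and 0.16. Among 9 of 10 fatty acid targets of SREBP, those of Fasn, Acly and Scd2 were -0.01, -0.06 and 0.11. None of these genes passed the test.

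**Figure D2:**
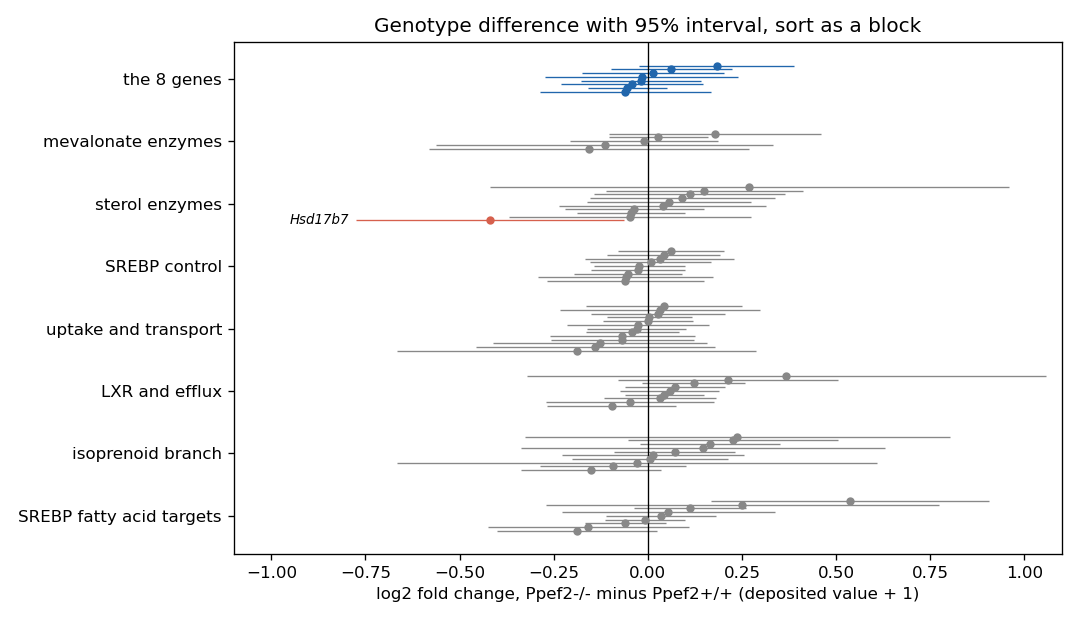
Log2 fold change of Ppef2-/- against Ppef2+/+ (x axis) with its 95% interval from the fit with the sort as a block, 1 point per gene, grouped by list (y axis). The 8 genes (blue) lie between -0.06 and 0.18 with intervals that include 0; Hsd17b7 (red) is at -0.42.

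The second question was how the genes differed within each sort. In the comparison of the 2 libraries of a sort, the log2 ratio of the levels was called where its exact 95% interval, which covers counting error only, excluded 0. This compares libraries and not genotypes, and was added after the data had been seen. It covered 7 of the 8 genes and 5738 genes with a mean of at least 100. In sort 4, 4 of the 7 genes were higher in the Ppef2-/- library, against 14.1% of all genes, and 0 were lower, against 10.6%. These were Idi1 (log2 ratio 0.54, interval 0.28 to 0.81), Hmgcs1 (0.39, 0.20 to 0.58), Cyp51 (0.38, 0.19 to 0.58) and Insig1 (0.26, 0.10 to 0.43). The other 3 genes also had ratios above 0, between 0.07 and 0.11, and the median over the 7 genes was 0.26, compared to 0.02 over all genes.

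The other sorts did not share this direction. In sort 1, 0 of 7 genes were higher (9.65% of all genes) and 1 was lower (13.0%), namely Hmgcs1 with a log2 ratio of -0.25. In sort 2, 0 were higher (10.9%) and 1 was lower (10.5%), namely Idi1 with -0.32. In sort 3, 0 were higher (8.59%) and 1 was lower (9.92%), again Hmgcs1, with -0.31. In sort 5, 1 gene was higher (9.04%) and 1 was lower (7.91%), and these were Sqle with 0.42 and Cyp51 with -0.32. The median log2 ratio of the 7 genes was -0.08, 0.04, 0.00 and -0.21 in sorts 1, 2, 3 and 5.

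In sort 4 the rest of the pathway was also measured. Of the 7 sterol enzymes with a mean of at least 100, 4 were higher in the Ppef2-/- library and 0 lower. Among them were Msmo1, Nsdhl and Lss, with log2 ratios of 0.71, 0.63 and 0.53, named after their values were seen. Of 9 genes of uptake and transport, 4 were higher, among them Stard4, a sterol transfer protein, and Mylip, with log2 ratios of 0.47 and 0.27, and 3 were lower, among them Lrp1, an endocytic receptor, and Npc1, which exports cholesterol from lysosomes, with -0.83 and -0.43. Of 7 genes of LXR and efflux, 2 were higher and 2 lower, among them the apolipoprotein gene Apoe with -0.68. Over all 43 genes of the wider lists, 13 were higher and 7 lower in sort 4, against 14.1% and 10.6% of all genes, with a median log2 ratio of 0.00. The sum of the 5 cDC2 markers was 759 in the Ppef2+/+ and 485 in the Ppef2-/- library of sort 4, and 609 and 905 in those of sort 5. The sum of 6 of 7 macrophage and monocyte markers was 1507 and 1482 in sort 4. Their part in the difference was not tested. Without both libraries of sort 4, the median log2 fold change of the 8 genes between genotypes was -0.05, and 0 of the 8 were called.

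**Figure D3:**
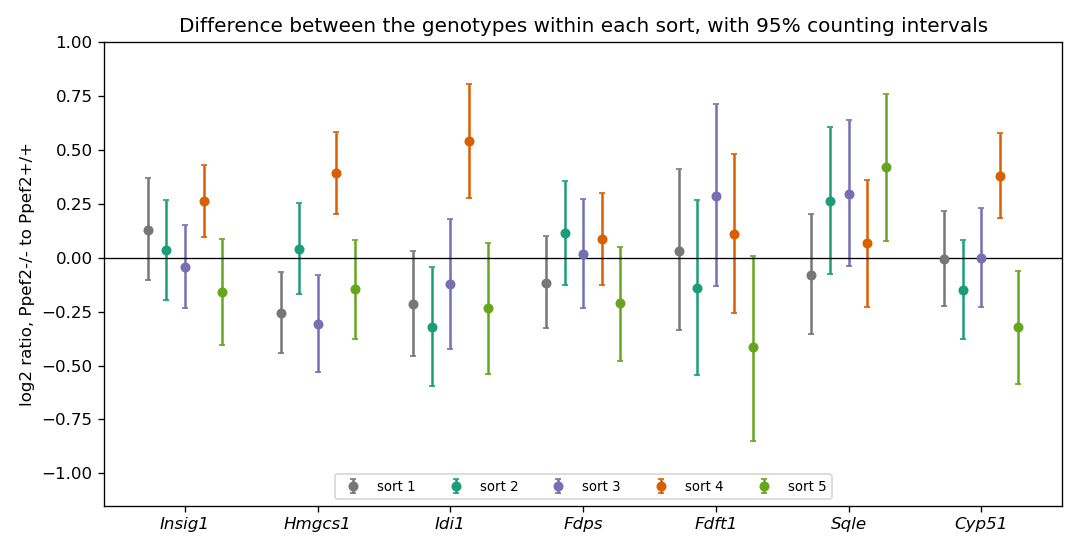
Log2 ratio of the Ppef2-/- to the Ppef2+/+ library (y axis) of 7 genes (x axis) in each sort (colours), with exact 95% counting intervals as bars. The 7 ratios of sort 4 lie above 0, between 0.07 and 0.54; 1 of 7 lies above 0 in sort 5.

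The third comparison was between the sorts, which could be made only on the levels calculated from reads. It was added after the data had been seen, and used limma with genotype and sort in the model and an F test of the sort terms. The sort is taken to mark cells collected on separate occasions, and its mice, sort and sequencing cannot be told apart. By this test 2 of the 7 genes differed between sorts, against 6.62% of 9637 genes. Insig1 differed most, with sort means of 277, 302, 541, 588 and 333 normalized reads, a range of 2.12 times (F = 34.9, limma adjusted p = 3.64e-08). The SD of its log2 sort means was 0.50, which was above that of 98.3% of the 5738 genes with a mean of at least 100, and the median gene had 0.11. The pattern was present in each genotype, with the libraries of sorts 3 and 4 above those of sorts 1, 2 and 5 in Ppef2+/+ and in Ppef2-/- cells.

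Cyp51 had sort means of 316, 305, 388, 434 and 297 normalized reads (F = 6.14, limma adjusted p = 0.022). This call rested on sort 4, and without both of its libraries the adjusted p was 0.18. It was also lost with eBayes without a trend (adjusted p = 0.43). Hmgcs1, Sqle, Idi1, Fdps and Fdft1 were not called, with adjusted p-values of 0.55, 0.45, 0.81, 0.35 and 0.84, and their highest sort mean was 1.21 to 1.32 times the lowest.

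Of the wider lists, with 65 genes in the table and tested where reads were solved, 4 genes differed between sorts. They were 2 of 11 solved genes of uptake and transport, 1 of 8 of LXR and efflux and 1 of 7 fatty acid targets. None of the 5 mevalonate enzymes, 10 sterol enzymes, 9 genes of SREBP control and 10 of the isoprenoid branch was called. Over all 9637 genes solved, the share was 6.62%, and that of the wider lists together was near it. Mylip, a ubiquitin ligase that limits cholesterol uptake and is induced by LXR, had sort means of 158, 155, 246, 254 and 178 normalized reads (limma adjusted p = 0.0024). It was high in sorts 3 and 4, as Insig1 was. Nr1h2, which encodes LXRβ, had 556, 567, 741, 718 and 689 (adjusted p = 0.0061), and Scd2, a fatty acid desaturase, had 963, 709.6, 802, 791 and 713 (adjusted p = 0.028). These 4 calls were lost with eBayes without a trend, where 0 were called, 108 genes passed in all and Insig1 remained called (adjusted p = 0.039).

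**Figure D4:**
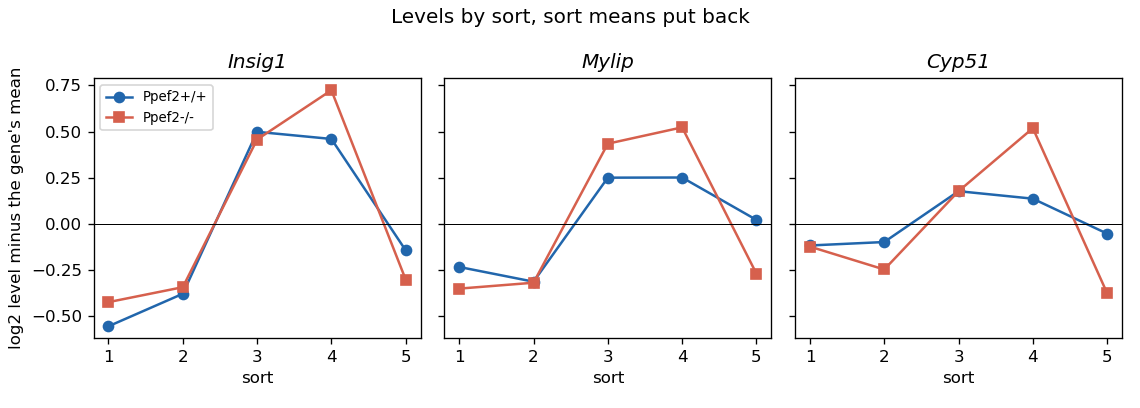
Log2 level minus the mean of the gene (y axis, sort means put back) by sort (x axis) for Insig1, Mylip and Cyp51 in Ppef2+/+ (blue circles) and Ppef2-/- cells (red squares), 1 library per point. Insig1 is above its mean in sorts 3 and 4 and below it in sorts 1, 2 and 5 in both genotypes.

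The members varied together over the libraries to different degrees. Over the 10 libraries, Pearson's r of the log2 levels was above 0 in all 21 pairs of the 7 genes, with a median of 0.51. The highest was 0.88, between Cyp51 and Insig1, and the lowest 0.13, between Idi1 and Insig1. The mean standardized log2 level of the 7 genes reached its highest value (1.52) in Ppef2-/- cells of sort 4 and its lowest value (-0.92) in those of sort 2. Tnfaip1, Spred3, Trerf1 and Oat were among the 5 of 9630 other genes that followed this mean most closely, with r of 0.93, 0.92, 0.91 and 0.90 over 10 libraries. None of these 4 belongs to the lists of the pathway. Of the lists, Mylip ranked 37 and Hsd17b7 ranked 171. The points of these correlations share sorts and libraries, and the values are a description.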

How the data were processed

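Messenger RNA of CD8+ cDC1 was sequenced in 5 libraries per genotype. Groups were taken from the labels, and the sort number is the replicate number within each genotype. Short single-end reads were mapped to mm10 by the authors (HISAT per the paper's methods, TopHat2 2.0.3 per the submitters' processing notes), then counted over RefSeq genes (Partek Genomics Suite) and normalized with DESeq2. The authors set values below 1 to 1 and removed genes with a mean under 10 in both genotypes. The deposited values are therefore a normalized count signal. The step that removed the sort means is not given in the sources used here. All 10 columns were used.

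The 8 genes and the gene lists were chosen with earlier results of these data known. Differential expression was calculated with limma 3.58.1 in R 4.3.3 (lmFit, eBayes with trend, two-sided) on log2(deposited value + 1), with genotype only, like the one-way model of the study, and calls at an adjusted p under 0.05. The sort numbers pair the libraries, since they mark a shared sort in the labels and both libraries of a sort add up to a constant sum (r = -1 of their deviations in each sort). On values restored to their sort means, r was 0.06 to 0.29.

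Reads were calculated back as the deposited value plus the amount taken from the sort, divided by the value of 1 read, which was 0.464 to 1.50 normalized counts. Of the 10767 genes, 9637 had 1 solution. No unique solution was obtained for genes with a mean of 1000 or more. Genes above 4000, and genes with too many candidate combinations of reads, were not searched. The calculation of reads from a given value of 1 read and the tests across genes were tested on simulated data. The search for the value of 1 read was not. In each sort 2 or 3 pairs of such values passed the search, and the pair with the smallest sum was used and then refined. Counting intervals are exact Clopper-Pearson intervals at 95% and cover counting error only. Levels per kb use exon unions of GENCODE M21, whose gene models need not be those counted.

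Named are the 8 genes, Ppef2, list genes with an adjusted p under 0.05, the 3 most abundant genes of each pathway list and the 5 genes most like the mean of the 7 genes solved for reads, and further genes said to be named after their values were seen. Mylip, the other genes that differed between sorts and the genes named for sort 4 are among these. Alternatives were other pseudocounts and scalings, a mean of at least 50, the replicate block, no trend, no log, each library left out, and sort means put back. Some genes that these rules name are not reported here.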

Additional observations from a re-analysis of the deposited data

Results flagged for a closer look

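Within groups of 5 values, a value was singled out where its gap to the nearest other value, divided by the range, was over 0.71 (Dixon's criterion). Over 22 groups about 1.1 are singled out by chance, and 2 were. The level of Hmgcs1 in the Ppef2-/- library of sort 4 was 521 normalized reads, while the other Ppef2-/- libraries lay between 352 and 375. The difference of Idi1 between the deposited values of Ppef2-/- and Ppef2+/+ was 89.5 normalized reads in sort 4, while it lay between -46.2 and -19.0 in the other sorts. Both values involve the Ppef2-/- library of sort 4. The difference of Idi1 also involves the Ppef2+/+ library of sort 4, in which Idi1 was the lowest of its genotype. The sum of the cDC2 markers was 485 normalized reads in the Ppef2-/- library of sort 4 and 512 to 905 in the other Ppef2-/- libraries. In the Ppef2+/+ library of sort 4 it was 759, the highest of its genotype. The part of these markers was not tested.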

How the results depend on the processing

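None of the 8 genes was called in any fit of the genotypes that was run, and the median of their log2 fold changes ran from -0.05 without both libraries of sort 4 to 0.02 without the Ppef2-/- library of sort 5, -0.04 to 0.02 over the single libraries left out. The lowest adjusted p of any member was 0.052 (Idi1 without sort 4). Sqle, Hmgcs1, Idi1 and Srebf2 kept their direction in all alternatives. Of 22 alternatives each, Insig1, Fdps and Fdft1 kept it in 20 and Cyp51 in 16. The count of called genes in the table, 103, depended on the error model. With the replicate block it was 1, with eBayes without a trend 193, with values without a log 202, with sort means put back 1 without and 2 with the replicate block, and with the block and without sort 4 it was 4. With single libraries left out it was 1 to 23, lowest without the Ppef2+/+ or Ppef2-/- library of sort 2 or the Ppef2+/+ library of sort 3. Of the wider lists, 1 gene was called, and 0 with a mean of at least 50, with the replicate block, with sort means put back with and without the block, without sort 4 with and without the block, and, as a range over single libraries left out, 0 to 0. Between sorts, 638 genes, 2 members and 4 genes of the wider lists were called. Without a trend these were 108, 1 and 0. Without sort 4, 1 member was called, and without sort 1, 2 genes of the wider lists. Srebf2 could not be tested with sort means put back. With 72 to 808 reads per library, the counting intervals of the 7 members within a sort measure 0.33 to 0.86 on the log2 scale from end to end.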
